A study of Mus musculus with 4 samples.

Results

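Metalloproteinases and their inhibitors were followed in immune cells of mouse skin wounds as 9 genes out of 31053 counted: the matrix metalloproteinases Mmp9, Mmp12, Mmp13, Mmp14 and Mmp19, the membrane proteases Adam8 and Adam17, and the inhibitors Timp1 and Timp2. They were chosen by name and function, with earlier results of these data known, and all 9 were among the counted genes. The 4 libraries were single-cell RNA-seq of CD45+ leukocytes that excluded propidium iodide, sorted from full-thickness excisional wounds on the back of 8-week-old male mice. The labels of all 4 libraries give the strain as C57BL6/J. Angptl4+/+ animals came from a commercial supplier. Angptl4-/- animals lacked angiopoietin-like 4 in every cell and came from a mutant mouse repository. Genotype and origin of the colony therefore cannot be told apart. Wounds were taken at 1 day or 5 days post wounding (dpw), with 1 library for each genotype at each time, and the number of mice behind a library is not given in the sources used here. There was therefore no replicate check of any difference: every interval below covers counting error only, and no p-value is given.

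The 4 libraries held 20069 cell barcodes, of which 19827 passed the filters, with 26981596 to 32962595 unique molecular identifiers (UMIs, each standing for 1 captured RNA molecule) per library and a median of 3735.5 to 4975.5 UMIs per cell. Pairs of libraries shared 4 to 15 barcodes. Angptl4 had 47 and 78 UMIs in the Angptl4+/+ libraries at 1 and 5 dpw and 0 UMIs in both Angptl4-/- libraries, where a count of 0 allows up to 3. Clusters were named from marker genes: neutrophil-like cells made up 54.5% to 77.1% of a library and macrophage-like cells 13.7% to 31.4%, with fewer monocyte-like, dendritic cell-like and NK cell/T cell-like cells. Levels are UMIs of a gene per 1000000 UMIs of the class in that library (CPM). The summed level of 11 macrophage markers was 12367 to 18810.3 CPM in macrophage-like cells and 43.8 to 245 in neutrophil-like cells. That of 7 neutrophil markers was 102151 to 212849 CPM in neutrophil-like cells and 1780.35 to 11931 in macrophage-like cells.

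Matrix metalloproteinases are zinc-dependent enzymes, made as inactive precursors, that cut collagen, elastin, gelatin and other matrix proteins. Adam proteases sit in the membrane and release the outer part of other membrane proteins, and tissue inhibitors of metalloproteinases (Timp proteins) bind the active site of many of these enzymes. In wounds, neutrophils bring stored proteases with them, while macrophages make proteases and inhibitors as tissue is cleared and rebuilt. RNA counts do not measure stored, secreted or activated enzyme.

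On the mouse assembly GRCm38 (mm10), Mmp9 lies at chr2:164940780-164955850 on the plus strand. Mmp13 (chr9:7272514-7283331, plus strand) and Mmp12 (chr9:7344381-7369499, plus strand) are neighbours, 61.0 kb apart with 0 annotated genes between them. Mmp14 is at chr14:54431612-54445364 and Mmp19 at chr10:128790910-128800824, both on the plus strand. Adam8 (chr7:139978932-139992562), Adam17 (chr12:21323509-21373632) and Timp2 (chr11:118301069-118355740) are on the minus strand. Timp1 (chrX:20870166-20874735, plus strand) lies within Syn1 on the opposite strand, without exon overlap. Exons of Mmp12, Mmp19, Adam8 and Adam17 overlap exons of a gene on the other strand, which a strand-aware 3′ count keeps apart. Cep295nl, with 333 UMIs, lies within Timp2 on the same strand, without exon overlap. RefSeq promoter entries on GRCm38.p6 matched 7 of the 9 genes, with 8 entries since Mmp12 had 2 starts.

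The 250 bases before the start are shown for Mmp13 and for the second Mmp12 start, the member windows that held a motif searched for, and for Timp1 as an example of the windows that held none. Capitals mark TGANTCA, the letters bound by AP-1, and TATAAA, the TATA box, searched on both strands. The windows are chr9:7272264-7272513, chr9:7347124-7347373 and chrX:20869916-20870165, all on the plus strand and written 5′ to 3′.
Mmp13: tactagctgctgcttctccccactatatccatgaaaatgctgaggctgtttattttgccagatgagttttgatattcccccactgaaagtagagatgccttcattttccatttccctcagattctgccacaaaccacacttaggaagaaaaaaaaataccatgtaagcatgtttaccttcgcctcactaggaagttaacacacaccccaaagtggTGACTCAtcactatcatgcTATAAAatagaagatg
Mmp12, second start: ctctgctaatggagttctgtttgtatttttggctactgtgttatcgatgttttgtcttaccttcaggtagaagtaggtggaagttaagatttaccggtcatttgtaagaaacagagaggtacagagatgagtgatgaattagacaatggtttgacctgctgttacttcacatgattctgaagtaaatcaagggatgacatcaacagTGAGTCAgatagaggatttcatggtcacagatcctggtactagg
Timp1: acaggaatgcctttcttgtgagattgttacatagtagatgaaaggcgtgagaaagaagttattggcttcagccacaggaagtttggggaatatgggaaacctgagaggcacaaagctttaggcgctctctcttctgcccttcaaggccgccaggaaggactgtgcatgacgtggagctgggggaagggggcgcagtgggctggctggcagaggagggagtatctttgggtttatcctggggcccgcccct
TGANTCA began 35 bases before the Mmp13 start and 44 bases before the second Mmp12 start, and TATAAA began 16 bases before the Mmp13 start. Neither motif was present in the windows of Timp1, Mmp14, Adam8, Adam17, Timp2 and the first Mmp12 start. By the GENCODE annotation 203 of the 250 bases of the Timp2 window, and 16 of the first Mmp12 window, lay in exons of the gene itself. TGANTCA was found in 2 of the 8 member windows and in 2217 of 32851 windows of the same length (6.75%), and TATAAA in 1 of 8 and in 4063 of 32851 (12.4%). A match describes letters and not binding.

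The genes divided by cell class. Over the 4 libraries, 95.8% of Mmp9 UMIs lay in neutrophil-like cells. Macrophage-like cells held 95.3% of Mmp12, 98.0% of Mmp13, 88.1% of Mmp14, 88.3% of Mmp19 and 82.1% of Timp1. Neutrophil-like cells, the larger class, held 71.4% of Adam8 and 72.8% of Timp2. Adam17 had 44.6% in neutrophil-like and 44.4% in macrophage-like cells. These pooled shares differed by library. In Angptl4+/+ wounds at 5 dpw macrophage-like cells held more, 57.8% of Timp2 and 62.3% of Adam17, against 36.6% and 25.2% in neutrophil-like cells. In the other libraries neutrophil-like cells held more, 60.3% to 90.1% of Timp2 and 47.6% to 55.9% of Adam17. Of the 9 genes, 5 (Mmp12, Mmp13, Mmp14, Mmp19 and Timp1) had at least a 2-fold higher level in macrophage-like than in neutrophil-like cells in all 4 libraries, beside 41.9% of 8366 genes, and 1 (Mmp9) was at least 2-fold lower, beside 7.71%. Since a level is a share of the class's UMIs, fewer molecules of a gene per cell and more of other RNAs cannot be told apart.

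**Figure D1:**
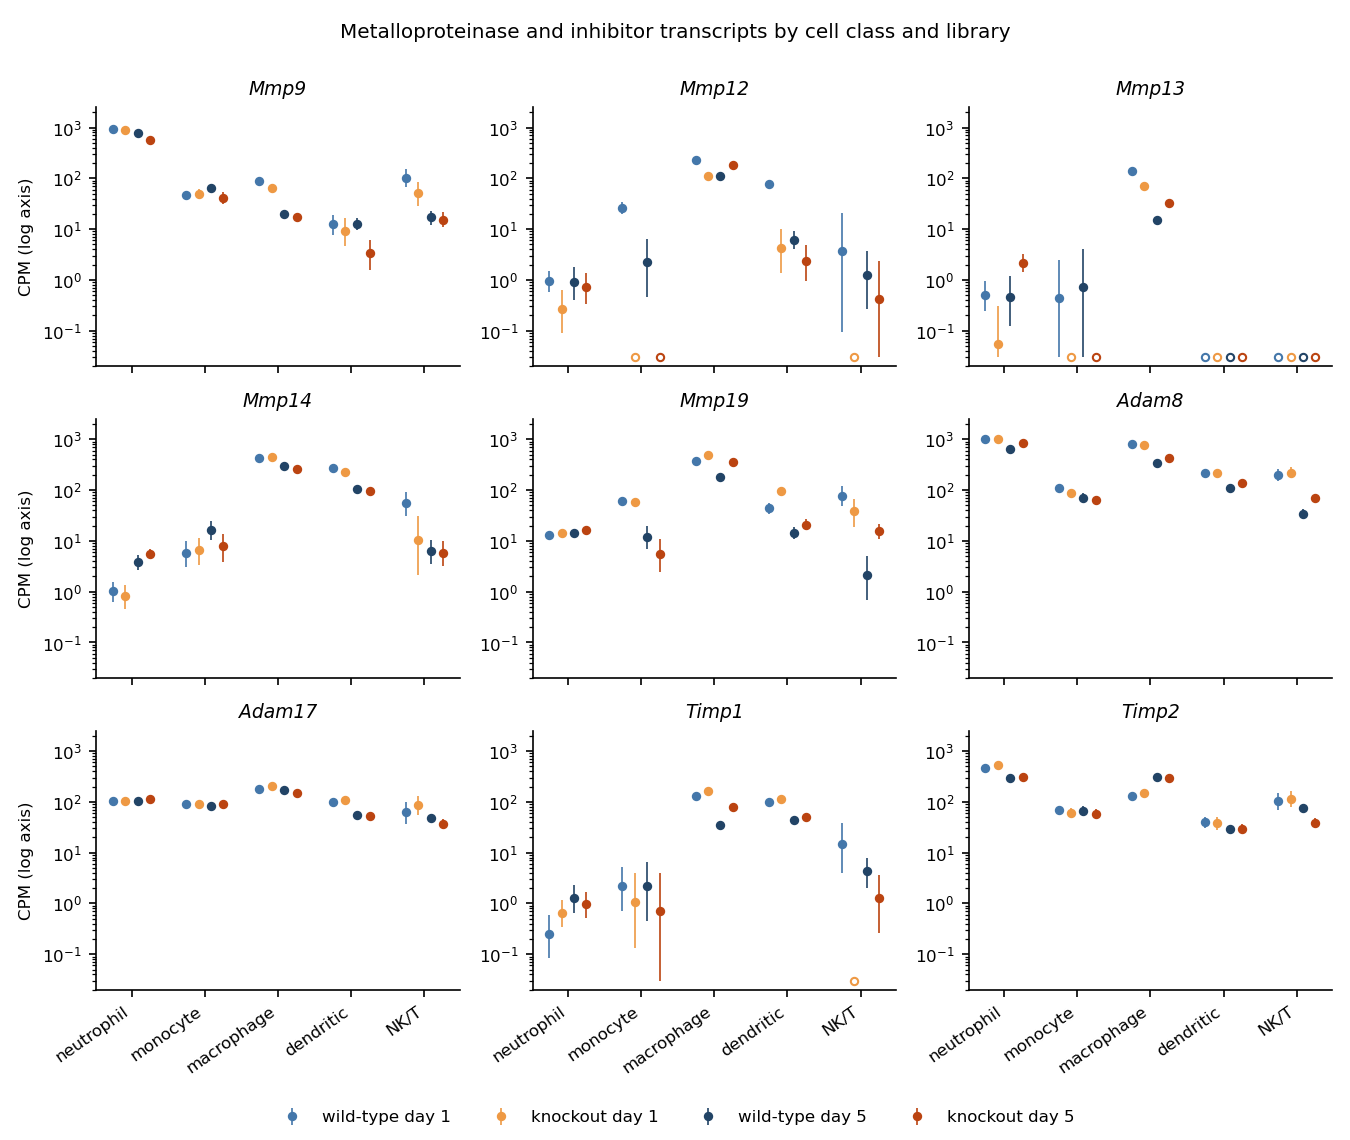
Level of each of the 9 genes (CPM, log axis) in 5 cell classes, 1 point per library (wild-type is Angptl4+/+ and knockout Angptl4-/-) with its 95% counting interval. Open circles mark 0 UMIs. Mmp9 sits highest in neutrophil-like cells, and Mmp12, Mmp13, Mmp14, Mmp19 and Timp1 sit at least 12.5-fold higher in macrophage-like than in neutrophil-like cells in every library.

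Mmp9, gelatinase B, is stored in neutrophil granules. In neutrophil-like cells its level was 928 CPM (95% interval 915 to 942) for Angptl4+/+ against 888 (875 to 902) for Angptl4-/- at 1 dpw, and 778 (759 to 797) and 572 (559 to 586) at 5 dpw. The Angptl4-/- library at 5 dpw was the lowest. The log2 ratio of Angptl4-/- to Angptl4+/+ was -0.06 at 1 dpw and -0.44 (-0.49 to -0.40) at 5 dpw, and the 5 dpw ratio was below 0 in 6 of 6 neutrophil-like clusters, from -0.71 to -0.09. The share of cells with an Mmp9 UMI was 81.3% and 77.3% at 1 dpw and 66.7% and 61.3% at 5 dpw, Angptl4+/+ first. Thinned to 1000 UMIs per cell, which removes the difference in depth, it was 50.7%, 47.0%, 44.8% and 35.6% in the same order. The order of the libraries was kept after thinning.

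Mmp9 varied among neutrophil-like clusters. It was 854 to 1368 CPM in cluster 0, led by Lrg1, Ly6g, Mmp8 and Cxcr2, which held 41.3% of all Mmp9 UMIs. It was 175 to 382 in cluster 6, led by the cytokine genes Il1a, Ccl4 and Ccl3. In every library the cluster 0 value lay above the cluster 6 value. In a finer clustering Mmp9 was at 1224 to 1842 CPM in a cluster led by Ngp, Pglyrp1 and Mmp8. It was at 1139 to 1688 in one led by Egr3, Ltb and Rgs3, and at 698 to 1156 in one led by Lrg1, Prok2 and Ly6g. Across 44 cluster-by-library points and 10361 genes, the levels most like Mmp9 were those of Map1lc3b, S100a9 and S100a8 (Pearson's r 0.97 for each on the log2 scale), a description in which points of a library share its depth.

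Mmp9 was also counted at low levels in macrophage-like cells, beside other neutrophil genes. In macrophage-like cells Mmp9 was 90.2 and 63.6 CPM at 1 dpw and 20.1 and 17.4 at 5 dpw. These values were 9.72%, 7.16%, 2.58% and 3.05% of the neutrophil-like level of the same library. Of 6 neutrophil genes measured the same way, Csf3r was higher, at 10.9%, 12.1%, 6.66% and 5.91%, and the other 5 were lower, reaching at most 6.56%, 5.07%, 2.15% and 2.01%. Mmp9 thus lay above 5 of the 6 genes and below Csf3r in each library. The log2 ratio of 5 to 1 dpw for Mmp9 in macrophage-like cells was -2.17 (Angptl4+/+) and -1.87 (Angptl4-/-), and the summed neutrophil markers there went from 11931 and 10419 CPM to 1780.35 and 1921 CPM. The part of RNA from neutrophils in this difference was not tested.

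**Figure D2:**
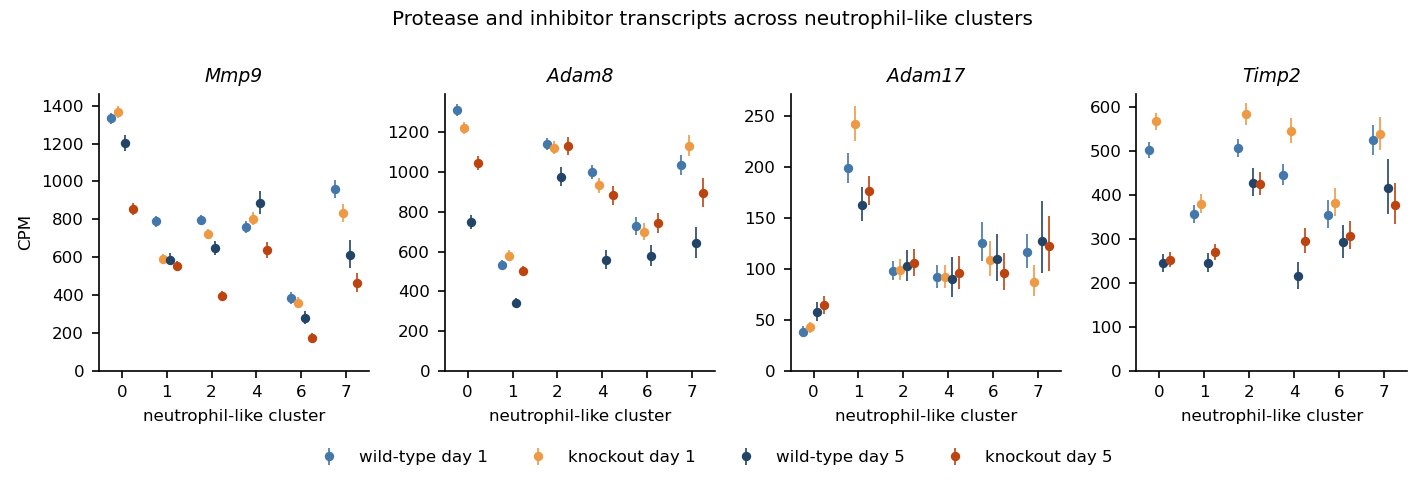
Levels of Mmp9, Adam8, Adam17 and Timp2 (CPM) in the 6 neutrophil-like clusters, 1 point per library with its 95% counting interval. Mmp9 is highest in cluster 0, where Adam17 is lowest at 38.1 to 64.3, and Adam17 is highest in cluster 1 at 163 to 242.

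Adam8, a membrane protease of leukocytes, was counted in most neutrophil-like cells. Its level there was 1020.5 CPM (1006 to 1035) for Angptl4+/+ against 998 (984 to 1013) for Angptl4-/- at 1 dpw, and 644 (628 to 662) and 857 (841 to 874) at 5 dpw. The Angptl4+/+ library at 5 dpw was the lowest of the 4, whereas for Mmp9 it was the Angptl4-/- library. The log2 ratio of Angptl4-/- to Angptl4+/+ was -0.03 at 1 dpw and 0.41 (0.36 to 0.46) at 5 dpw, above 0 in 6 of 6 clusters at 5 dpw (0.21 to 0.66). With each cell thinned, 56.5% and 55.9% of cells had an Adam8 UMI at 1 dpw, and 40.1% and 49.9% at 5 dpw. Among clusters Adam8 was lowest in cluster 1, led by Csf1 and Il1rn, at 339 to 580, and reached 976 to 1142 in cluster 2, led by Igf1r, Fpr1 and Acod1.

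Adam17, the enzyme that releases tumor necrosis factor and growth factors such as amphiregulin, stayed within a narrow band in neutrophil-like cells taken as a class. It stood at 102 CPM for Angptl4+/+ against 105 for Angptl4-/- at 1 dpw and at 106 and 113 at 5 dpw. The 4 log2 ratios between these libraries, of genotypes and of days, lay between 0.05 and 0.10. Its gradient between clusters was wider, from 38.1 to 64.3 in cluster 0 to 163 to 242 in cluster 1. Within single clusters the log2 ratio of 5 to 1 dpw ran from -0.29 to 0.59 (Angptl4+/+) and from -0.46 to 0.60 (Angptl4-/-). That of Angptl4-/- to Angptl4+/+ ran from -0.41 to 0.29 at 1 dpw and from -0.19 to 0.16 at 5 dpw. The Adam17 level was most like that of Cstb, Fndc3a and Ctsb over the cluster points (Pearson's r 0.90 for Cstb).

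Timp2, an inhibitor that also takes part in activating pro-Mmp2 together with Mmp14, was the inhibitor counted in neutrophil-like cells. Its level was 460 CPM for Angptl4+/+ against 518 for Angptl4-/- at 1 dpw and 291 and 308 at 5 dpw. Both 5 dpw libraries were below both 1 dpw libraries, with log2 ratios of 5 to 1 dpw of -0.66 (-0.72 to -0.60) and -0.75 (-0.81 to -0.70), below 0 in 6 of 6 clusters in each genotype. These clusters rest on the integration of the libraries: without it, 1 neutrophil-like cluster held 1667 and 1422 cells at 1 dpw and 31 and 36 at 5 dpw, and another held 82 and 48 at 1 dpw and 1243 and 1561 at 5 dpw. Over the whole class the Timp2 ratios were -0.66 and -0.75 without integration too. The genotypes were 0.17 and 0.08 apart at 1 and 5 dpw. The level most like Timp2 over the cluster points was that of C5ar1, the receptor for complement C5a (Pearson's r 0.91).

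The median gene of neutrophil-like cells was higher at 5 than at 1 dpw, by 0.71 (Angptl4+/+) and 0.74 (Angptl4-/-) on the log2 scale. The 7 neutrophil markers summed to 195711 and 212849 CPM at 1 dpw and to 102151 and 103498 at 5 dpw, and their part in this shift was not tested. Relative to the median gene, the log2 ratio of 5 to 1 dpw was -0.97 and -1.37 for Mmp9, -1.37 and -0.96 for Adam8, -1.37 and -1.49 for Timp2, and -0.65 and -0.64 for Adam17, Angptl4+/+ first. Mmp9, Adam8, Timp2 and Adam17 thus lay below the median gene in both genotypes.

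In neutrophil-like cells few members passed 2-fold, counted where a gene had at least 50 UMIs in the pair of libraries. Between genotypes the count was 0 of 5 at 1 dpw, beside 1.77% of 7618 genes, and 0 of 6 at 5 dpw, beside 1.75% of 7930. Between 5 and 1 dpw it was 1 of 6 in Angptl4+/+ (36.1% of 7791 genes) and 1 of 6 in Angptl4-/- (38.8% of 7865), Mmp14 both times, which was higher at 5 dpw, beside 34.2% and 37.0% of genes higher. Mmp14 had 20 and 15 UMIs at 1 dpw and 33 and 68 at 5 dpw in these cells, 0.18% to 2.16% of its macrophage-like level. The 7 macrophage genes C1qa, C1qb, C1qc, Apoe, Mrc1, Ms4a7 and Cbr2 were counted in neutrophil-like cells at 0.10% to 2.09% of theirs. In the Angptl4-/- library at 5 dpw they reached at most 1.88%, with Mmp14 above all 7 at 2.16%, and in the other 3 libraries Mmp14 lay within their range. The part of RNA from macrophages in this difference was not tested. Mmp12, Mmp13 and Timp1 had too few UMIs to be compared. Mmp19, at 12.8 and 14.3 CPM at 1 dpw and 14.4 and 16.1 at 5 dpw, lay above these 7 genes at 2.97% to 8.02% of its macrophage-like level.

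In macrophage-like cells most members were lower at 5 than at 1 dpw, 8 of 9 in Angptl4+/+ and 7 of 9 in Angptl4-/- wounds. The Angptl4+/+ count includes Adam17 at a log2 ratio of -0.05. It was -0.12 and 0.05 in the 2 macrophage-like clusters, neither beyond counting error. In Angptl4+/+ wounds 7 of 9 passed 2-fold, beside 12.9% of 9884 genes: Mmp9, Mmp12, Mmp13, Mmp19, Adam8 and Timp1 were lower, beside 4.47% of genes lower, and Timp2 was higher, beside 8.41% higher. In Angptl4-/- wounds 3 of 9 passed, Mmp9, Mmp13 and Timp1, beside 9.83% of 9125 genes. All 3 were lower, beside 3.79% of genes lower. Mmp9, counted in both genotypes, was here at 2.58% to 9.72% of its neutrophil-like level, and the part of RNA from neutrophils was not tested. The median log2 ratio of the 9 members was -1.05 and -0.81, against 0.17 and 0.09 for all genes tested. Between genotypes 1 of 9 passed at 1 dpw (Mmp12, lower in Angptl4-/-, beside 1.25% of 9012 genes either way and 0.644% lower) and 2 of 9 at 5 dpw (Mmp13 and Timp1, higher in Angptl4-/-, beside 1.82% of 9883 genes either way and 0.779% higher). In macrophage-like cells 4 mast cell markers summed to 244 CPM in the Angptl4-/- library at 5 dpw and to at most 1.91 in the others. The part of RNA from mast cells in the differences between genotypes was not tested. The macrophage-like class joined cluster 3, led by Arg1, Cd36 and Fn1, and cluster 5, led by Ms4a7, Apoe and C1q genes. Cluster 3 made up 825 of 1154 and 560 of 847 cells at 1 dpw and 997 of 1555 and 323 of 650 cells at 5 dpw, so its share was lowest in the Angptl4-/- library at 5 dpw. Without integration, 1 macrophage-like cluster held 77 and 69 cells at 1 dpw and 823 and 269 at 5 dpw, and the counts past 2-fold between days were again 7 and 3 of 9.

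**Figure D3:**
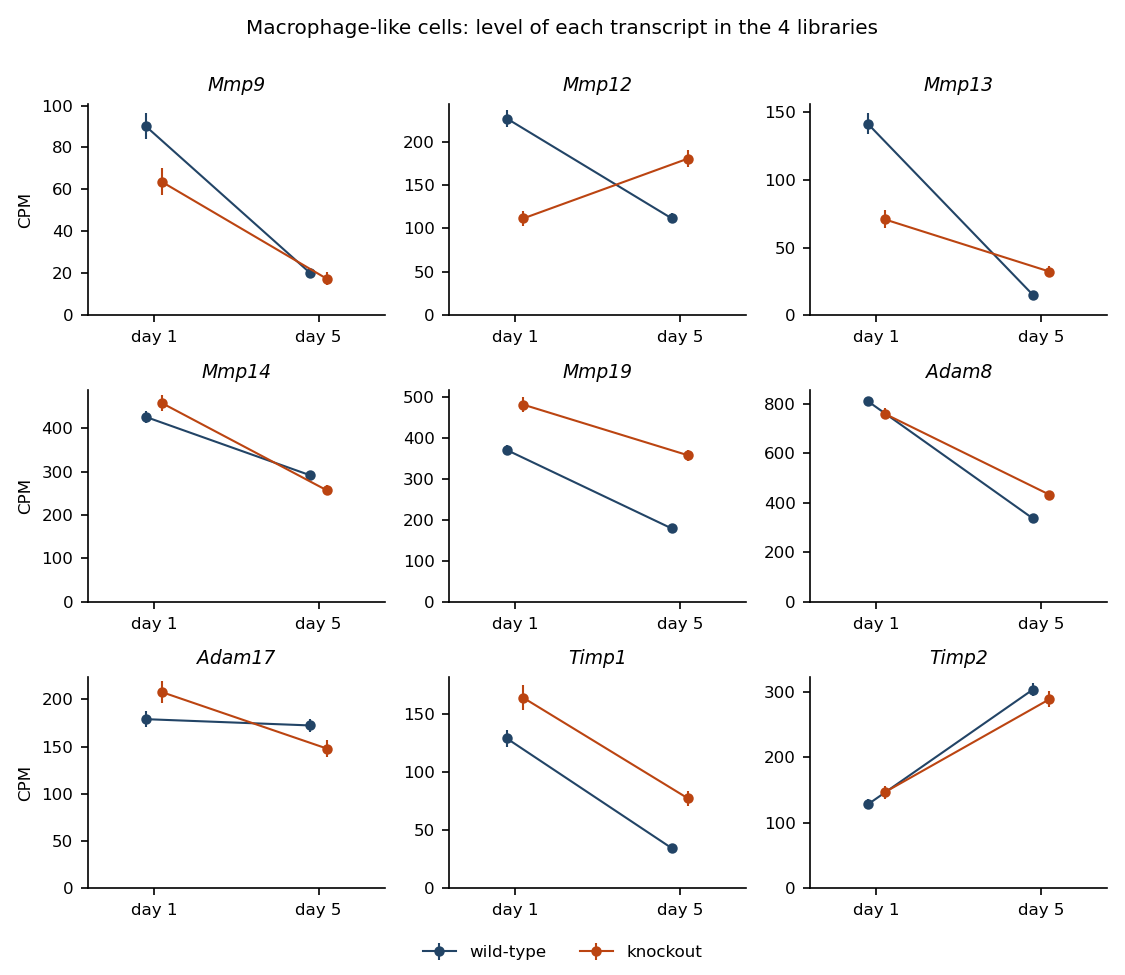
Levels of the 9 genes in macrophage-like cells (CPM, linear axes from 0) at 1 and 5 dpw, 1 point per library with its 95% counting interval and a line joining the 2 libraries of a genotype. Timp2 is higher at 5 dpw in both genotypes, Mmp12 runs in opposite directions, and the other genes are lower at 5 dpw in both. Adam17 in Angptl4+/+ is lower by a log2 ratio of only -0.05.

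Mmp12, macrophage elastase, was uneven between cells. Its level in macrophage-like cells was 226.5 CPM (217 to 237) for Angptl4+/+ against 112 (103 to 121) for Angptl4-/- at 1 dpw, and 112 (106 to 118) and 180.5 (171 to 190.2) at 5 dpw. By level the Angptl4+/+ library at 1 dpw was highest and the Angptl4-/- library at 5 dpw next. The share of macrophage-like cells with an Mmp12 UMI gave another order at 5 dpw, 12.4% and 7.44% at 1 dpw and 7.91% and 7.54% at 5 dpw. With cells thinned to 1000 UMIs it was 6.60%, 4.73%, 4.57% and 3.29%, so the higher Angptl4-/- level at 5 dpw was not seen as more cells with the gene. In neutrophil-like cells, which should lack it, Mmp12 was at 0.966 CPM or less, in 0.135% to 0.463% of cells. The median depth was 5832 to 11483 UMIs per macrophage-like cell and 3218 to 4683 per neutrophil-like cell.

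A few cells held much of the Mmp12 RNA. The single highest macrophage-like cell had 228 and 82 UMIs at 1 dpw and 195 and 291 at 5 dpw. The 5 highest cells held 35.5%, 39.7%, 36.6% and 59.9% of the class's Mmp12 UMIs, in the order Angptl4+/+ and Angptl4-/- at 1 dpw, then at 5 dpw. The 10 highest cells of each library all lay in cluster 3. Leaving out the 5 highest cells of each library kept the 1 dpw log2 ratio of Angptl4-/- to Angptl4+/+ (-1.02 with them, -1.12 without) but moved the 5 dpw ratio from 0.69 to 0.03. Within cluster 3 alone the 2 ratios were -0.69 and 1.02, and within cluster 5 they were -2.13 and -1.45, at far fewer UMIs. In a finer clustering Mmp12 was at 176 to 594 CPM in a cluster led by Arg1 and Pdpn and at 1.23 to 90.1 in one led by C1q genes. Among the genes most like it over the cluster points were Slc7a2 and Car6 (Pearson's r 0.92 for each).

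Mmp13, a collagenase that cuts fibrillar collagen, was also uneven between cells. Its level was 141 CPM (134 to 149) for Angptl4+/+ against 71.0 (64.3 to 78.2) for Angptl4-/- at 1 dpw, and 15.2 (13.2 to 17.5) and 32.4 (28.5 to 36.7) at 5 dpw. Both 5 dpw libraries were below both 1 dpw libraries, and the log2 ratio of 5 to 1 dpw came to -3.22 (-3.44 to -3.00) for Angptl4+/+ against -1.13 (-1.36 to -0.90) for Angptl4-/-. In Angptl4-/- wounds at 5 dpw 1 cell held 156 of the 249 UMIs (62.7%), and the 5 highest held 82.7%. Without the 5 highest cells of each library the ratio of Angptl4-/- to Angptl4+/+ at 5 dpw turned from 1.09 to -0.76, and in cluster 5 alone it was -0.93. The ratio of 5 to 1 dpw stayed below 0 in both genotypes without these cells (-2.95 and -2.60). The share of cells with an Mmp13 UMI was 11.1% and 8.74% at 1 dpw and 4.44% and 4.77% at 5 dpw, or 5.59%, 4.60%, 1.52% and 1.72% with thinning, again lower at 5 dpw in both genotypes. The genes most like it were Sel1l3, Ppbp and Flrt2 (Pearson's r 0.92, 0.92 and 0.90).

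**Figure D4:**
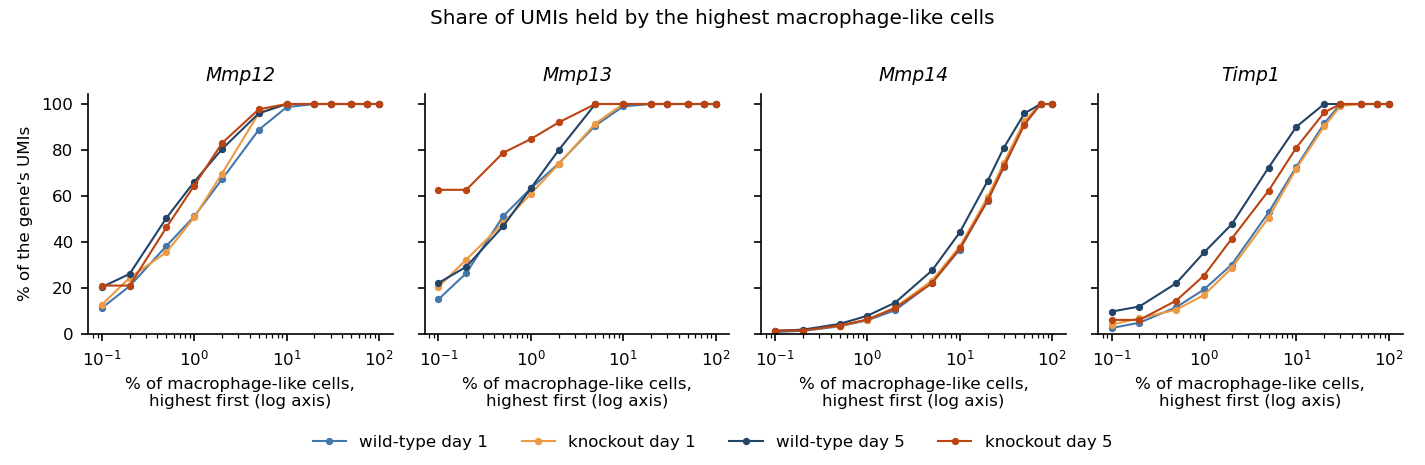
Cumulative share of a gene's UMIs (percent) against the share of macrophage-like cells (percent, log axis) ranked from the highest downward, 1 line per library, for Mmp12, Mmp13, Mmp14 and Timp1. Mmp12 and Mmp13 curves start high, with 1 cell holding 62.7% of Mmp13 in Angptl4-/- wounds at 5 dpw, while 102 to 190 cells are needed to hold 50% of Mmp14.

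Mmp14, the membrane-bound protease that activates pro-Mmp2 and pro-Mmp13, was spread over most macrophage-like cells. Its level was 426 CPM for Angptl4+/+ against 458 for Angptl4-/- at 1 dpw and 291 and 257 at 5 dpw. Between 60.1% and 71.4% of cells had a UMI, or 25.7% to 36.4% with thinning. It was lower at 5 dpw in both genotypes (log2 ratio -0.55 and -0.83), short of 2-fold, and the genotypes were 0.10 and -0.18 apart at 1 and 5 dpw. The genes most like it over the cluster points were Rai14, Rasgef1b and Timp1 (Pearson's r 0.95 for each).

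Mmp19, which cuts basement membrane proteins, was counted in both macrophage-like clusters and most in cluster 3, with 59.8% of its UMIs. Its level was 370.4 CPM (358 to 383) for Angptl4+/+ against 481 (463 to 499) for Angptl4-/- at 1 dpw, and 179 (172 to 187) and 357.5 (344 to 371) at 5 dpw. Over the whole class Angptl4-/- wounds were higher at each time. The log2 ratio was 0.38 at 1 dpw and 0.996 (0.916 to 1.08) at 5 dpw, just under 2-fold. At 1 dpw it was 0.71 in cluster 3 and -0.05 in cluster 5. At 5 dpw it was 1.07 in cluster 3 and 1.36 in cluster 5. With thinning, 24.9% and 31.7% of cells had an Mmp19 UMI at 1 dpw and 11.3% and 21.9% at 5 dpw, the same order as the levels. The genes most like it were Ednrb, Slc7a8 and Arg1, the last encoding arginase of alternatively activated macrophages (Pearson's r 0.92, 0.89 and 0.89). In a macrophage-like cluster led by Retnla, in a finer clustering, it was at 377 to 1693 CPM over the 4 libraries.

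Adam8 and Adam17 in macrophage-like cells differed in time course. Adam8 was at 809 CPM for Angptl4+/+ against 759 for Angptl4-/- at 1 dpw and at 337 and 433 at 5 dpw, with log2 ratios of 5 to 1 dpw of -1.26 and -0.81. Adam17 was at 179, 208, 172 and 148 in the same order, with ratios of -0.05 and -0.49. The Adam8 ratio of Angptl4-/- to Angptl4+/+ at 5 dpw, 0.36, had the sign and about the size of that in neutrophil-like cells, and the Adam17 ratio was -0.22.

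The inhibitors ran in opposite directions in macrophage-like cells. Timp1 was at 129 CPM (122 to 137) for Angptl4+/+ against 164 (154 to 175) for Angptl4-/- at 1 dpw, and at 34.8 (31.6 to 38.1) and 77.5 (71.4 to 84.0) at 5 dpw. Timp2 was at 128 (121 to 136) and 146 (137 to 157) at 1 dpw and at 303 (294 to 313) and 288 (276 to 300.4) at 5 dpw. Every 5 dpw library was below every 1 dpw library for Timp1 and above for Timp2. The log2 ratio of 5 to 1 dpw was -1.90 and -1.08 for Timp1 and 1.24 and 0.98 for Timp2. The share of cells with a UMI, thinned, went from 10.2% and 11.6% to 2.65% and 5.64% for Timp1 and from 10.7% and 10.2% to 24.2% and 23.0% for Timp2.

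Between genotypes Timp1 differed and Timp2 did not pass 2-fold. The Timp1 log2 ratio of Angptl4-/- to Angptl4+/+ was 0.35 (0.22 to 0.47) at 1 dpw and 1.16 (0.98 to 1.34) at 5 dpw. At 5 dpw it was 1.72 in cluster 3 and 0.41 in cluster 5, and 1.05 without the 5 highest cells. The Timp2 ratios were 0.19 and -0.07, the latter with an interval from -0.15 to 0.003. In a finer clustering an unnamed cluster led by Vcan and Chil3 had Timp1 at 83.7 to 248 CPM and Timp2 at 26.8 to 47.0, and a macrophage-like cluster led by Tppp3 and Folr2 had Timp1 at 28.6 to 222 and Timp2 at 206 to 564. The ranges of these clusters overlapped for Timp1 and not for Timp2.

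**Figure D5:**
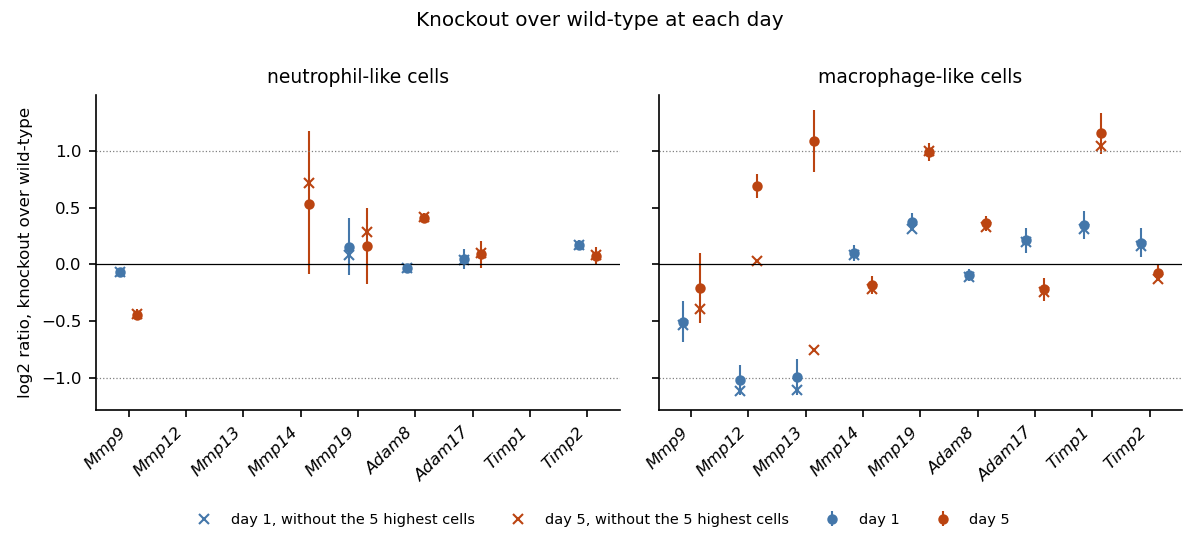
Log2 ratio of Angptl4-/- to Angptl4+/+ for each of the 9 genes in neutrophil-like and macrophage-like cells at 1 and 5 dpw, with 95% counting intervals, dotted lines at 2-fold, and crosses for the ratio without the 5 highest cells of each library. In macrophage-like cells at 5 dpw Timp1 stays past 2-fold at 1.05 without these cells, while Mmp13 moves from 1.09 to -0.76 and Mmp12 from 0.69 to 0.03.

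Dendritic cell-like cells, led as a class by Fscn1, Ccl22 and Ccr7, held 10.1% of Mmp14 and 16.1% of Timp1 UMIs. Mmp14 was at 268.5 CPM for Angptl4+/+ against 224 for Angptl4-/- at 1 dpw and at 107 and 96.4 at 5 dpw, and Timp1 at 100.4, 116, 43.7 and 49.7. Both were more than 2-fold lower at 5 dpw in each genotype, as Timp1 was in macrophage-like cells. In a finer clustering Timp1 was at 66.0 to 172 CPM (604 UMIs) in a dendritic cell-like cluster led by Cd209a. In the one led by Fscn1, Ccl22 and Ccr7 it was at 1.17 to 14.3 (19 UMIs). Mmp14 was at 92.1 to 327 and 77.2 to 164 in these clusters. The Cd209a cluster held 73 and 56 cells at 1 dpw and 172 and 142 at 5 dpw, Angptl4+/+ first. The other held 36 and 32, then 137 and 67. The part of this mix in the class's differences between days was not tested. Of the members compared, 4 of 8 passed 2-fold between 5 and 1 dpw in Angptl4+/+ (Mmp12, Mmp14, Mmp19 and Timp1, beside 7.62% of 7622 genes) and 4 of 6 in Angptl4-/- (Mmp14, Mmp19, Adam17 and Timp1, beside 5.05% of 6850). All were lower, beside 5.31% and 3.26% of genes lower. Between genotypes 2 of 7 passed at 1 dpw (Mmp19 higher and Mmp12 lower in Angptl4-/-, beside 2.49% either way, 1.27% higher and 1.22% lower) and 1 of 7 at 5 dpw (Mmp9, lower, beside 2.20% either way and 1.00% lower). That Mmp9 value rested on 51 and 10 UMIs, 1.64% and 0.579% of the neutrophil-like level, where the 7 neutrophil markers together were at 0.774% and 0.770% of theirs. The part of RNA from neutrophils in it was not tested. The Mmp12 value rested on 1 cell with 73 of 125 UMIs, and 86 to 304 cells per library made up this class. Mmp19 had 70 and 111 UMIs there at 1 dpw and 57 and 63 at 5 dpw, Angptl4+/+ first. The 5 highest cells of a library held 41.4% to 73.9% of its Mmp19 UMIs in this class. Mmp13 had 0 UMIs there in all 4 libraries, which allows up to 3 in each.

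A wider list of metalloproteinases, activators, inhibitors, Adam17 partners and Adam17 substrates had 61 genes counted, of which 25 had at least 200 UMIs and 7 had 0. Among proteases and inhibitors, Mmp8, the neutrophil collagenase, had log2 ratios of 5 to 1 dpw of -1.75 (Angptl4+/+) and -1.90 (Angptl4-/-) in neutrophil-like cells. Serpinb2, an inhibitor of plasminogen activators, had -5.35 and -2.36 in macrophage-like cells, and Adamts10 had 1.41 and 2.20. These genes of the wider list were thus past 2-fold in both genotypes. At 5 dpw Mmp8 was lower in neutrophil-like cells, and in macrophage-like cells Serpinb2 was lower and Adamts10 higher, at only 2.58 to 11.8 CPM. Serpinb2 was also lower in neutrophil-like cells (-1.10 and -1.75), and Mmp8 in macrophage-like cells (-3.35 and -3.38). The part of RNA from neutrophils in the macrophage-like Mmp8 difference was not tested.

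Among 10 listed Adam17 substrates, 9 had enough UMIs in neutrophil-like cells. Between days 3 of 9 (Angptl4+/+) and 4 of 9 (Angptl4-/-) passed 2-fold, beside 36.1% and 38.8% of all genes tested. In both genotypes 2 were lower, Tnf and Areg. Of all genes past 2-fold, 2662 of 2812 (Angptl4+/+) and 2910 of 3055 (Angptl4-/-) were higher at 5 dpw. Tnf, encoding tumor necrosis factor, was at 503 CPM for Angptl4+/+ against 411 for Angptl4-/- at 1 dpw and at 235 and 190.0 at 5 dpw. Areg, encoding amphiregulin, had log2 ratios of 5 to 1 dpw of -3.86 and -1.13. These rested on low levels, 0.232 to 6.60 CPM, with 226 UMIs over all libraries. In macrophage-like cells Areg was at 6.11 to 83.4 CPM, with ratios of -3.58 and -1.12. The part of RNA from macrophages in the neutrophil-like Areg difference was not tested. Il6ra, encoding the interleukin receptor that Adam17 sheds, was at 68.5 and 66.8 at 1 dpw and at 159.5 and 167 at 5 dpw. It was higher in both genotypes, beside 34.2% and 37.0% of genes at least 2-fold higher. Over the wider list 0 of 24 and 1 of 21 genes passed 2-fold between genotypes in neutrophil-like cells at 1 and 5 dpw, beside 1.77% and 1.75% of all genes tested, and 2 of 22 and 3 of 23 in macrophage-like cells, beside 1.25% and 1.82%. Between days the counts were 5 of 22 (Angptl4+/+) and 7 of 23 (Angptl4-/-) in neutrophil-like cells, beside 36.1% and 38.8%, and 8 of 23 and 6 of 23 in macrophage-like cells, beside 12.9% and 9.83%. The median log2 ratio of 5 to 1 dpw in macrophage-like cells was -0.01 and -0.33 over the wider list. It was -1.05 and -0.81 over the 9 members.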

How the data were processed

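The deposited gene-by-cell tables hold whole-number counts of UMIs, which the authors made with Cell Ranger 3.1.0 on mm10 (10x 3′ v3 chemistry; Seurat 3.0 is also named in the submitters' processing notes). Each genotype and day is 1 library, from CD45+ cells of wounds. The members and gene lists were chosen with earlier results of these data known. Of 62 listed wider genes, 61 were counted (Mmp1a was not used here).

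Cells with at least 200 genes and at most 10% mitochondrial UMIs were kept. Libraries were integrated in Seurat 5.3.0 (R 4.3.3; 2000 variable genes without the members or the wider list, 30 dimensions) and clustered at resolution 0.5. A cluster was named from a marker list only with at least 3 of its markers each seen in at least 10% of the cluster's cells, a rule set after the clusters were seen. The automatic doublet threshold (scanpy 1.11.5) marked 0 or 3 cells per library and had not worked, so no doublets were removed. Leaving out the highest-scoring 4% was an alternative.

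UMIs were summed per class and library in Python 3.11.15 and divided by the class total. Levels carry exact Poisson 95% intervals and log2 ratios exact conditional binomial ones (scipy 1.17.1), which cover counting error only. Past 2-fold means at least 50 UMIs in the pair of libraries and a ratio of at least 2 either way. Where a library of the pair had no UMI, the ratio used a floor of 3 UMIs. Thinning drew 1000 UMIs per cell, leaving out 86 to 157 shallower cells per library. The calculation was tested on simulated counts. Wider genes were named if past 2-fold in the same direction in both genotypes or at both days. The promoter motifs were chosen after the data were seen. Sequences are from RefSeq (GRCm38.p6), positions from GENCODE vM21. A few genes that these rules name are not reported here.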

Additional observations from a re-analysis of the deposited data

Results flagged for a closer look

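In 6 cases the log2 ratio of Angptl4-/- to Angptl4+/+ lay on opposite sides of 0 at 1 and 5 dpw, each beyond its counting interval. With 1 library per genotype and day the difference between days was not tested against animals.

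For Mmp12 in macrophage-like cells this log2 ratio went from -1.02 at 1 dpw to 0.69 at 5 dpw, a difference of 1.71, and for Mmp13 it was -0.99 and 1.09, a difference of 2.09. Without the 5 highest cells of each library the 5 dpw ratios were 0.03 and -0.76, so the 5 dpw values rested on a few cells.

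Adam8 ratios were -0.03 and 0.41 in neutrophil-like cells, a difference of 0.44, and -0.09 and 0.36 in macrophage-like cells, a difference of 0.45. In macrophage-like cells Mmp14 ratios were 0.10 and -0.18 (difference -0.28), and Adam17 ratios were 0.21 and -0.22 (difference -0.43). These 4 differences were all smaller than 2-fold. The Mmp14 ratios did not change sign within a cluster: they were 0.26 and 0.14 in cluster 3 and -0.003 and -0.52 in cluster 5. The part of the cluster mix in the class's Mmp14 difference was not tested. At 1 dpw the Adam8 ratio was above 0 in 2 of 6 neutrophil-like clusters (-0.10 to 0.13). In the 2 macrophage-like clusters it was -0.10 and 0.02. At 5 dpw the Adam8 ratio was above 0 in every one of these clusters. Relative to the median gene, Adam8 in neutrophil-like cells was at 0.07 at 1 dpw and 0.49 at 5 dpw, above 0 both times.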

How the results depend on the processing

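No paired analysis was possible because each genotype and day is 1 library, and leaving out a replicate was not possible for the same reason. For 15 member ratios past 2-fold in neutrophil-like and macrophage-like cells, 140 of 142 values under other settings kept their direction. Ratios of dendritic cell-like cells and of the wider list were not among them. The 2 exceptions were Mmp13 between genotypes in macrophage-like cells at 5 dpw (1.09), which was -0.76 without the 5 highest cells of each library, a setting chosen after seeing the data, and -0.93 in cluster 5 alone. Over all 59 member ratios of neutrophil-like and macrophage-like cells, 603 of 650 values kept their direction. The size was kept less often than the direction. In macrophage-like cells the weakest values between days were -0.30 (Mmp13) and -0.35 (Timp1) in Angptl4-/-. In Angptl4+/+ they were -0.61 (Mmp19), -0.68 (Mmp12) and -0.995 (Adam8). Between genotypes they were -0.63 for Mmp12 at 1 dpw and 0.41 for Timp1 at 5 dpw. Apart from these and Mmp13 between genotypes, the 15 ratios past 2-fold had no value under 2-fold.

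Of 80 counts of members past 2-fold under other settings, 58 were within 1.5 times the count given and 22 were not. The neutrophil-like counts between 5 and 1 dpw (1 of 6 in each genotype) became 4 and 4 with median-of-ratios scaling, with Mmp9, Adam8 and Timp2 lower beside Mmp14 higher. They became 0 and 0 with thinned cells, 2 and 3 with no minimum of UMIs, and 3 and 3 at 1.5-fold. In Angptl4+/+ alone this count was 0 with likely doublets left out and 0 without the 5 highest cells. Between genotypes the neutrophil-like counts of 0 and 0 became 3 at 1 dpw and 1 at 5 dpw with no minimum of UMIs. The macrophage-like count of 1 at 1 dpw became 2 with median-of-ratios scaling, without integration, with cells of at least 500 genes, with likely doublets left out, at 1.5-fold or without the 5 highest cells, and 0 at resolution 1.0 or with thinned cells. At 1.5-fold the macrophage-like counts were 4 between genotypes at 5 dpw and 7 between days in Angptl4-/-. The cause of these changes was not tested. Mmp12, Mmp13 and Timp1 had under 50 UMIs in each pair of neutrophil-like sums. The same held for Mmp13, Mmp14 and Timp1 in monocyte-like cells, and B cell-like cells were too few for every member.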

Other observations

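Mmp12 was seen more often in macrophage-like cells with an Mmp13 UMI than in those without. With each cell thinned to 1000 UMIs, 21.3% of Mmp13-positive (13 of 61) and 5.73% of Mmp13-negative cells had an Mmp12 UMI in Angptl4+/+ wounds at 1 dpw. The Angptl4-/- library at that time gave 19.4% (7 of 36 cells) and 4.02%. At 5 dpw the shares were 34.8% (8 of 23) and 4.10% for Angptl4+/+, and for Angptl4-/- they were 18.2% (2 of 11) and 3.03%. The same direction was found in 4 of 4 libraries, on few Mmp13-positive cells in each. Mmp14 and Timp2, whose proteins act together on pro-Mmp2, showed no such pairing: Timp2 was seen in 11.0% of Mmp14-positive and 10.6% of Mmp14-negative cells in Angptl4+/+ wounds at 1 dpw, and in 25.3% and 23.9% at 5 dpw. In Angptl4-/- wounds these shares were 9.47% and 10.6% at 1 dpw and 21.2% and 23.7% at 5 dpw.

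In monocyte-like cells, Mmp19 was at 61.2 CPM for Angptl4+/+ against 57.2 for Angptl4-/- at 1 dpw, and at 11.9 and 5.64 at 5 dpw, lower at 5 dpw in both genotypes. Mmp12 in that class rested on 1 cell with 59 of the 60 UMIs of the Angptl4+/+ library at 1 dpw. Adam17 was level there, at 90.5 and 90.5 at 1 dpw and 83.9 and 89.5 at 5 dpw. In neutrophil-like cells Hbegf, encoding a growth factor that Adam17 releases, was the 1 gene of the wider list past 2-fold between genotypes at 5 dpw, at 2.32 CPM in Angptl4+/+ and 9.13 in Angptl4-/- wounds. It was named after its values were seen.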
